A study of Mus musculus with 6 samples.

Results

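The genes described here are 46 components and targets of the unfolded protein response and of the integrated stress response. They were chosen by gene symbol, and all 46 are among the 23183 symbols of each count table. Their levels were measured by RNA sequencing in 6 tumours of the line UV2237M, a mouse fibrosarcoma (a cancer of connective tissue cells) whose genotype is labelled as wild type. The 3 tumours called untreated received no treatment. The 3 called treated were given gold nanoclusters (GNC), small gold particles that can heat up under light, on day 1 and day 7, with near-infrared (NIR) irradiation. The labels used here give neither the host strain, age and sex nor how long after irradiation the tumours were taken, and do not tell whether each tumour is from its own animal. The p-values therefore measure only the spread between these libraries, which may be technical.

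Both responses slow protein synthesis and reset gene expression when protein folding or amino acid supply fails. Kinases that sense stress phosphorylate the initiation factor eIF2, which lowers general translation while favouring that of ATF4, a transcription factor that switches on amino acid synthesis, amino acid transport and tRNA charging. When folding fails in the endoplasmic reticulum, the folding compartment of secreted proteins, IRE1 splices the *Xbp1* mRNA and ATF6 is cut to release a transcription factor. Both raise chaperones and the degradation machinery. Counts per gene show neither the translation of *Atf4* nor the splicing of *Xbp1*. In a tumour, the cancer cells share these programmes with immune and stromal cells of the host.

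The libraries held 4680295 to 8019294 counts, and levels are given as CPM, counts per 1000000 after scaling for library size, always in the order of libraries 1, 2 and 3 of a group. Library untreated 2 was unlike the rest, at a mean distance of 1.22 on the log2 CPM scale where each other library had 0.611 to 0.729, and GC-rich genes were low in it. With genes in 5 equal bins by transcript GC content, untreated 2 differed from the others by a median of 0.76 log2 in the most AT-rich bin and of -0.76 in the most GC-rich. Of the 45 members that passed the filter on low counts, 14 were in the most GC-rich bin and 3 in the most AT-rich. The Pearson correlation of GC content with the difference of untreated 2 was -0.22 over these members and -0.45 over 12436 tested genes. Results are therefore given with all 6 libraries and without untreated 2. Of 7 connective tissue markers, *Vim* (2931 to 3909.5 CPM), *Col3a1* (12570.0 to 22445 CPM), *Sparc* (916 to 1558 CPM) and *S100a4* (921 to 2389 CPM) were high in each library, while *Col1a2* ran from 48.0 CPM in untreated 2 to 2239.7 CPM in treated 3, *Fn1* from 1043 to 8153 CPM and *Thy1* from 10.3 to 41.4 CPM. The T cell marker *Cd3e* had 0 counts. Summed levels of 8 macrophage markers were 871 to 1445 CPM in untreated and 436 to 778 CPM in treated tumours, with 6 of the 8 lower. Those of 5 neutrophil markers were 13.5 to 41.8 and 34.4 to 83.8 CPM, with 4 of 4 tested markers higher. The 6 keratinocyte markers summed to 1149 and 585 CPM in untreated 1 and 2 and to 4.76 to 59.4 CPM in the other 4 libraries. The 6 skeletal muscle markers summed to 387 CPM in treated 3 and to 3.26 to 87.6 CPM elsewhere. In bulk tissue, fewer cells of a type and less RNA per cell cannot be told apart, and the part of these other cells in the results was not tested.

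Some members share short promoter sequences that the choice of symbols did not use. RefSeq windows of 300 bases (250 before to 50 after the gene start, GRCm38.p6) were matched to 39 of the 46 members and searched on both strands. The core of the C/EBP-ATF response element, TGATGNAA, which ATF4 binds with a C/EBP partner, was in the windows of 10 members. It was in 4.51% of 27025 genes with a window, in 4 of 7 tRNA synthetases (*Aars*, *Gars*, *Iars*, *Yars*) and in 4 of 10 regulators (*Trib3*, *Chac1*, *Vldlr*, *Nupr1*). Of 8 amino acid genes *Asns* held it, and *Herpud1* was the endoplasmic reticulum gene that did. The endoplasmic reticulum stress element, CCAAT followed after 9 bases of any kind by CCACG, was in 5 of 11 endoplasmic reticulum genes (*Syvn1*, *Creld2*, *Derl3*, *Calr*, *Canx*) and in 0.137% of all genes. Its second form, ATTGG followed after 1 base by CCACG, was in *Herpud1* and in 0.0444% of all genes, and the unfolded protein response element TGACGTGG, which ends in the reverse complement of the CCACG in both, was in 0 of the 39 and in 0.714% of all genes. A match of letters is a description and not a site shown to be bound.

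The 6 windows are printed because they carry these letters in genes on which the results below turn. *Asns*, *Trib3*, *Aars*, *Gars* and *Calr* had a higher mean in treated tumours, and *Herpud1* a lower one. The groups overlapped in *Asns*, *Trib3* and *Calr*. Each window runs 5′ to 3′ on the strand of the gene, from 250 bases before its start to 30 after it. Capitals mark the C/EBP-ATF core in the first 4, that core and then the second form of the stress element in *Herpud1*, and the stress element in *Calr*. The core stands on the printed strand in *Asns* and on the opposite strand in *Trib3*, *Aars*, *Gars* and *Herpud1*, and the element in *Calr* is on the opposite strand too.
Asns (chr6:7693180-7693459, minus strand): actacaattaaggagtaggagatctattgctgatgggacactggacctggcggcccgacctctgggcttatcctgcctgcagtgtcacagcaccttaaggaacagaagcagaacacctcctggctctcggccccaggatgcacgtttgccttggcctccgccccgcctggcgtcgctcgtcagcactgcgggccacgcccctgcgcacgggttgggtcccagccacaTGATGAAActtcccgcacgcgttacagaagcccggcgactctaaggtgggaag
Trib3 (chr2:152344031-152344310, minus strand): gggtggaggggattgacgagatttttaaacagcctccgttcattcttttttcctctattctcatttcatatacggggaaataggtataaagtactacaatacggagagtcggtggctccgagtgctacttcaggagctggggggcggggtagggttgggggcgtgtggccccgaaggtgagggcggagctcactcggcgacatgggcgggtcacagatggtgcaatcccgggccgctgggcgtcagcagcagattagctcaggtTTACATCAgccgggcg
Aars (chr8:111033592-111033871, plus strand): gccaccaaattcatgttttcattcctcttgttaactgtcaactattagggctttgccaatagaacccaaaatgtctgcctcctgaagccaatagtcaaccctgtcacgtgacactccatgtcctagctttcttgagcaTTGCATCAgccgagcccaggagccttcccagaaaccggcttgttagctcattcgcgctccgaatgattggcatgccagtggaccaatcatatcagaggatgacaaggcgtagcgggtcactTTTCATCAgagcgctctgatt
Gars (chr6:55037751-55038030, plus strand): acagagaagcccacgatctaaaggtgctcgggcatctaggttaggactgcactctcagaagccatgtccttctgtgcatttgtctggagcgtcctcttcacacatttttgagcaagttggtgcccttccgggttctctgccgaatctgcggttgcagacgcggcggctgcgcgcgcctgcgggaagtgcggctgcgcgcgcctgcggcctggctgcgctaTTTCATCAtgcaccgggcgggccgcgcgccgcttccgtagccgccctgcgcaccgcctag
Herpud1 (chr8:94386179-94386458, plus strand): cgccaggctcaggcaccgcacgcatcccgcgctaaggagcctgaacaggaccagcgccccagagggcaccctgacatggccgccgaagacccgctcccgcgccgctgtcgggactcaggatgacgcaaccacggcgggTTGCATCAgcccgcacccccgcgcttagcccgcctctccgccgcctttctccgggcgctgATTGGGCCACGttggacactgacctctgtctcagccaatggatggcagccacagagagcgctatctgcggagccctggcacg
Calr (chr8:84846902-84847181, minus strand): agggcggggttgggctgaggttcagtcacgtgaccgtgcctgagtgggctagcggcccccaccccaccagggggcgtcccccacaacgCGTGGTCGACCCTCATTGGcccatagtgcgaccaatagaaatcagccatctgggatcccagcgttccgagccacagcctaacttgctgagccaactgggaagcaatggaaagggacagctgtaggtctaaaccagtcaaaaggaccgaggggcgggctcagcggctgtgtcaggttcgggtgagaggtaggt

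The first printed letter of the core lay 23 bases before the gene start in *Asns*, 30 before it in *Gars* and 112 before it in *Herpud1*, at base 15 of the transcript in *Trib3*, and both 112 bases before the start and at base 10 in *Aars*. The 10 members that hold it had a median log2 fold change of 0.42, 8 of them above 0. All 258 tested genes of the genome with the core had a median of -0.03. For the stress element, the 4 tested members that hold it had a median of 0.21, and all 16 tested genes with it 0.11.

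Most amino acid and tRNA charging genes had a log2 fold change above 0, treated minus untreated. The treated values lay above the untreated ones without overlap in 3 of 9 amino acid genes and 2 of 9 synthetases, beside 10.6% of all genes. In the rest of these genes the groups overlapped. The sensors *Atf6* and *Eif2ak3* were lower in treated tumours, without overlap. The chaperone genes *Calr* and *Canx* overlapped and differed by 0.12 and -0.07 log2. Leaving out untreated 2 moved *Canx* to 0.18, with each treated value then above the untreated ones. These are descriptions of values, since edgeR's quasi-likelihood test called 0 of 12517 genes (0%) at a Benjamini-Hochberg adjusted p under 0.05, limma-voom called 0 and DESeq2 57. The adjusted p of each tested member was 0.592 or more. Of the 45 tested members 35 had a log2 fold change above 0, where 49.9% of all tested genes did, and their median was 0.33 against -0.001 over all genes. At an unadjusted p under 0.05 there were 4 higher members (*Ppp1r15a*, *Mthfd2*, *Shmt2*, *Hyou1*) and 2 lower ones (*Atf6*, *Herpud1*), with 3.32% and 4.85% of all genes. The 3 treated values lay above the 3 untreated ones in 10 members and below them in 3, with 10.6% and 10.2% of all genes. *Derl3*, with 0 to 6 counts per library, did not pass the filter.

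These counts depended on single libraries. Without untreated 2, 14 members were higher and 3 lower at an unadjusted p under 0.05, beside 9.55% and 8.85% of all genes, and edgeR again called 0 genes (0%). Again 35 of 45 members lay above 0, where 50.1% of genes did, and 18 were above and 3 below the untreated values without overlap, beside 19.6% and 19.6% of genes. The higher and lower members at an unadjusted p under 0.05 numbered 0 and 0 without untreated 1 (1.51% and 4.84% of genes), without treated 1 (2.15% and 2.27%) and without treated 3 (0.702% and 1.77%). They numbered 2 and 1 without treated 2 (2.98% and 3.72%) and 4 and 2 without untreated 3 (5.12% and 8.08%). Members above without overlap were 17 without untreated 3 and 23 without treated 2, beside 17.9% and 17.9% of genes. DESeq2 called 0 members with all libraries, beside 0.156% of genes higher and 0.338% lower. Without untreated 2, a combination added after the data were seen, DESeq2 called *Psat1* (adjusted p 0.0215), *Hyou1* (0.0313) and *Asns* (0.0466) higher, beside 1.01% of genes, and 0 members lower, beside 1.39%. Over the alternatives to the main test, the adjusted p of each of the 3 reached up to 0.966.

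**Figure D1:**
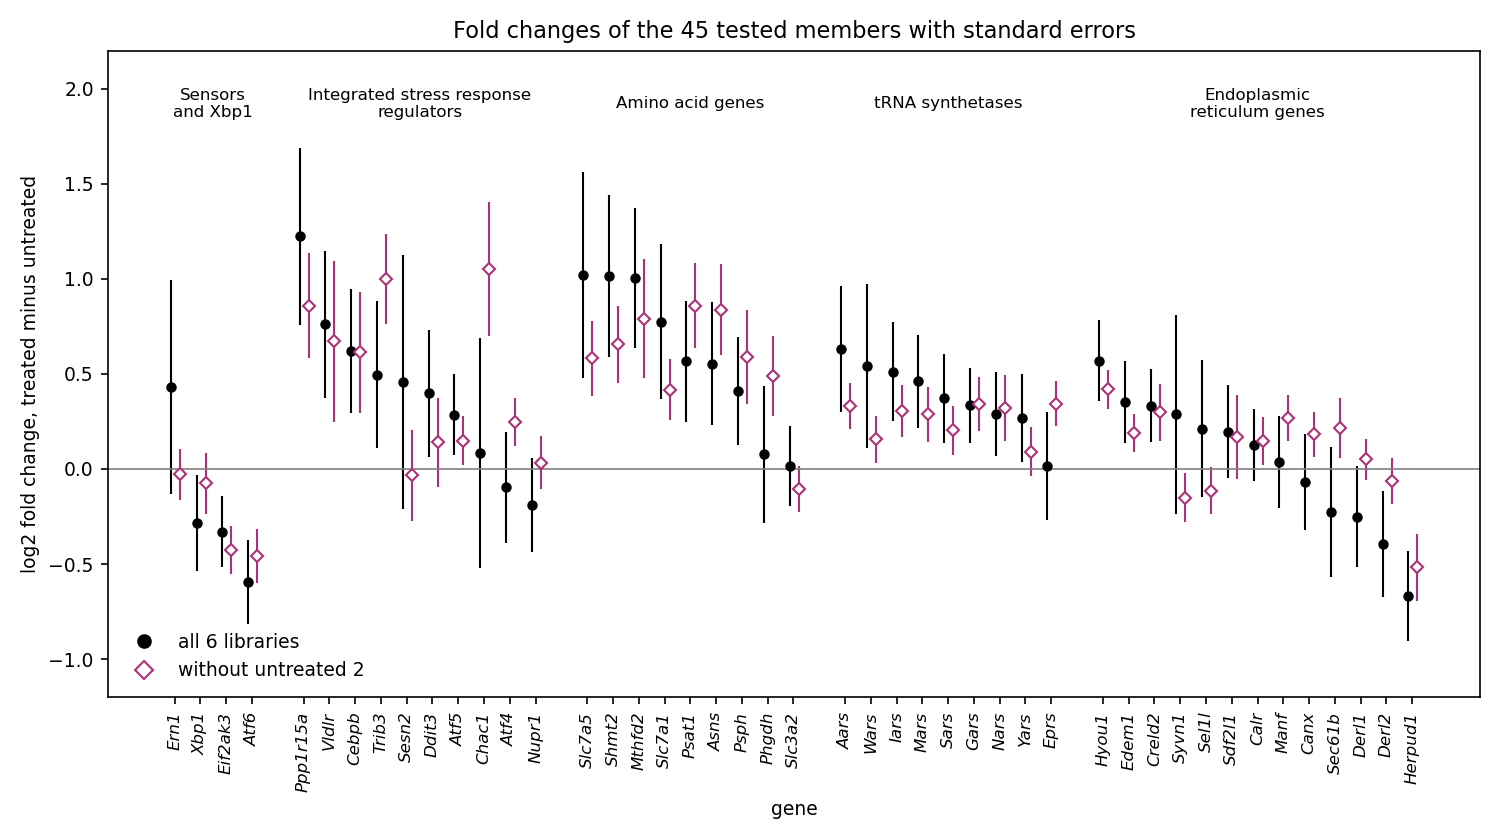
Log2 fold change (treated minus untreated, y axis) of the 45 tested members, grouped by role, with standard errors from edgeR for all 6 libraries (black circles) and without untreated 2 (open diamonds). *Ppp1r15a* lies highest at 1.23 and *Herpud1* lowest at -0.67 with all libraries, and *Chac1* moves from 0.08 to 1.05 without untreated 2.

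Of the 3 sensors and *Xbp1*, the factor spliced by IRE1, *Atf6* and *Eif2ak3* were lower in each treated tumour than in each untreated one, and the values of the other two overlapped. *Atf6* (chromosome 1, 170704674 to 170867771, mm10), the transcription factor held in the endoplasmic reticulum membrane, had 221, 264 and 180.4 CPM in the untreated and 155, 159 and 126 CPM in the treated libraries. Each treated value lay below each untreated one, with a log2 fold change of -0.60 ± 0.22 (edgeR, unadjusted p = 0.0317) and -0.46 ± 0.14 without untreated 2. *Eif2ak3* (chromosome 6, 70844515 to 70905245), the gene of the kinase PERK, had 47.9, 37.9 and 45.1 CPM in the untreated and 32.7, 37.7 and 33.9 CPM in the treated libraries. Its groups did not overlap either, although treated 2 and untreated 2 were nearly equal, and the log2 fold change was -0.33 ± 0.19, or -0.42 ± 0.13 without untreated 2. *Xbp1* (chromosome 11, 5520659 to 5525893) had 104, 144 and 90.3 CPM in the untreated and 90.3, 109.9 and 77.3 CPM in the treated libraries, so the groups overlapped. Here the log2 fold change was -0.28 ± 0.25, and -0.08 ± 0.16 without untreated 2. *Ern1*, the gene of IRE1, had 51.9, 10.042 and 60.5 CPM in the untreated and 50.8, 58.2 and 56.9 CPM in the treated libraries. Untreated 2 was the low library, and the log2 fold change was 0.43 ± 0.56 with it and -0.03 ± 0.13 without it. Over these 4 genes the median was -0.31, or -0.25 without untreated 2.

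Among the regulators, *Ppp1r15a* showed the largest log2 fold change over the 6 libraries, while *Chac1* and *Trib3* lay above it without untreated 2. *Ppp1r15a* codes for GADD34, the phosphatase subunit that reverses eIF2 phosphorylation (chromosome 7, 45522916 to 45526268), and had 15.9, 6.47 and 24.4 CPM in the untreated and 33.3, 28.2 and 49.1 CPM in the treated libraries. The groups did not overlap, and the mean was 36.8 ± 10.9 CPM in treated against 15.6 ± 8.97 in untreated tumours (SD, n = 3). The log2 fold change was 1.23 ± 0.47 (edgeR, unadjusted p = 0.0334), and 0.86 ± 0.28 without untreated 2. *Atf4* itself (chromosome 15, 80255184 to 80257541) had 177, 308 and 159.6 CPM in the untreated and 219.5, 176 and 207 CPM in the treated libraries. With untreated 2, its highest library, the log2 fold change was -0.10 ± 0.29, and without it 0.25 ± 0.13.

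*Trib3* and *Chac1*, targets of ATF4 and CHOP that encode a pseudokinase and a glutathione-degrading enzyme, were also highest in untreated 2. *Trib3* (chromosome 2, 152337422 to 152344032) had 5.45, 13.4 and 6.01 CPM in the untreated and 10.4, 11.8 and 12.3 CPM in the treated libraries. In untreated 1 and 3 it lay below each treated library. Its difference was 0.50 ± 0.39 log2, and 1.00 ± 0.24 without untreated 2 (edgeR, unadjusted p = 0.00310). *Chac1* (chromosome 2, 119351229 to 119354381) had 2.57, 11.8 and 3.19 CPM in the untreated and 5.18, 5.17 and 7.71 CPM in the treated libraries, from 17 to 62 counts per library. Over the 6 libraries its log2 fold change was 0.08 ± 0.60, and 1.05 ± 0.35 without untreated 2. *Ddit3*, the gene of the pro-apoptotic factor CHOP, differed less, with 9.23, 5.13 and 11.3 CPM untreated and 11.3, 9.79 and 13.1 CPM treated. Untreated 3 overlapped the treated values, and the log2 fold change was 0.40 ± 0.33, and 0.14 ± 0.23 without untreated 2. *Ddit3* overlaps the 3′ end of *Mars* on the opposite strand, so the counts of both are uncertain where strand was not used in counting.

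*Cebpb*, a partner of ATF4 that myeloid cells also express, had 29.3, 45.1 and 59.987 CPM untreated and 71.0, 50.1 and 86.0 CPM treated. Over the 6 libraries the log2 fold change of *Cebpb* was 0.62 ± 0.33, with the highest value in treated 3. The summed neutrophil markers given above were lowest in untreated 1 and highest in treated 1. The summed macrophage markers were lower in each treated tumour than in each untreated one. The part of these cells in the values of *Cebpb* was not tested. *Vldlr*, a lipoprotein receptor, had 2.01 to 2.57 CPM untreated and 2.68 to 5.44 CPM treated, without overlap but with 9 to 40 counts per library. *Atf5*, a related factor, had 72.6, 50.2 and 63.3 CPM untreated and 73.5, 69.9 and 83.4 CPM treated, which overlapped. *Nupr1*, a small chromatin protein, had 88.6, 138 and 93.4 CPM untreated and 78.3, 96.7 and 105 CPM treated, and its direction depended on untreated 2 (-0.19 ± 0.25, and 0.03 ± 0.14 without it). *Sesn2*, an inhibitor of mTORC1, had 14.8, 1.34 and 11.7 CPM untreated and 12.7, 10.6 and 15.5 CPM treated. Its log2 fold change of 0.46 ± 0.67 rested on untreated 2 and was -0.03 ± 0.24 without it. Of the 10 regulators 8 lay above 0, and 9 without untreated 2, with medians of 0.43 and 0.43.

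The amino acid genes were the group with the highest median, 0.57 with all libraries and 0.59 without untreated 2. All 9 lay above 0 with all libraries in the main test. *Slc3a2* lay below 0 with DESeq2, DESeq2 size factors, the upper quartile and a GC correction. It did so too when untreated 2, treated 1 or treated 3 was left out. *Phgdh* lay below 0 with the GC correction and when untreated 1, untreated 3, treated 1 or treated 3 was left out. Serine is made by the enzymes of *Phgdh*, *Psat1* and *Psph*, and 1-carbon units are then taken from it in mitochondria by those of *Shmt2* and *Mthfd2*. *Shmt2* (chromosome 10, 127517123 to 127522444) had 128, 49.8 and 158 CPM in the untreated and 258, 167 and 254 CPM in the treated libraries. The groups did not overlap, with treated 2 close to untreated 3. The log2 fold change was 1.01 ± 0.43 (edgeR, unadjusted p = 0.0488), and 0.66 ± 0.20 without untreated 2.

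*Mthfd2* (chromosome 6, 83305691 to 83325908) had 36.6, 24.8 and 46.2 CPM in the untreated and 77.8, 42.4 and 96.5 CPM in the treated libraries. Treated 1 and 3 stood above the untreated tumours and treated 2 lay within their range. The log2 fold change was 1.00 ± 0.37 (edgeR, unadjusted p = 0.0282), and 0.79 ± 0.31 without untreated 2. *Psat1* (chromosome 19, 15904678 to 15947337) had 75.0, 136 and 84.3 CPM in the untreated and 160.4, 101 and 175 CPM in the treated libraries. Untreated 2 lay between the treated values, while untreated 1 and 3 lay below each of them. For *Psat1* the log2 fold change was 0.57 ± 0.32, and 0.86 ± 0.22 without untreated 2 (edgeR, unadjusted p = 0.00516). *Phgdh* had 224, 468 and 241 CPM untreated and 379, 229.6 and 375 CPM treated, with untreated 2 the highest library and treated 2 between untreated 1 and 3. *Psph* had 9.98, 15.6 and 11.8 CPM untreated and 19.1, 12.4 and 18.0 CPM treated, a log2 fold change of 0.41 ± 0.28, and 0.59 ± 0.25 without untreated 2.

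*Asns* (chromosome 6, 7675169 to 7693254), the enzyme that makes asparagine and a standard readout of ATF4, had 36.6, 70.7 and 47.5 CPM in the untreated and 78.3, 53.7 and 95.0 CPM in the treated libraries. It too overlapped through untreated 2 alone. Its difference was 0.55 ± 0.32 log2, and 0.84 ± 0.24 without untreated 2 (edgeR, unadjusted p = 0.00874). Of the transporters, *Slc7a5* (chromosome 8, 121881150 to 121907694), which takes up large neutral amino acids, had 113, 27.7 and 136 CPM in the untreated and 191, 141 and 229 CPM in the treated libraries. The groups did not overlap, and treated 2 lay just above untreated 3. For *Slc7a5* the log2 fold change was 1.02 ± 0.54, and 0.58 ± 0.20 without untreated 2, the lowest library. *Slc7a1*, a carrier of arginine and lysine, was without overlap too, with 88.9, 30.8 and 87.1 CPM untreated and 122, 94.7 and 138 CPM treated. *Slc3a2*, the heavy chain that pairs with the *Slc7a5* product, overlapped, with 183, 135 and 168 CPM untreated and 179, 144 and 168 CPM treated. *Slc3a2* had a log2 fold change of 0.02 ± 0.21, and -0.11 ± 0.12 without untreated 2.

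**Figure D2:**
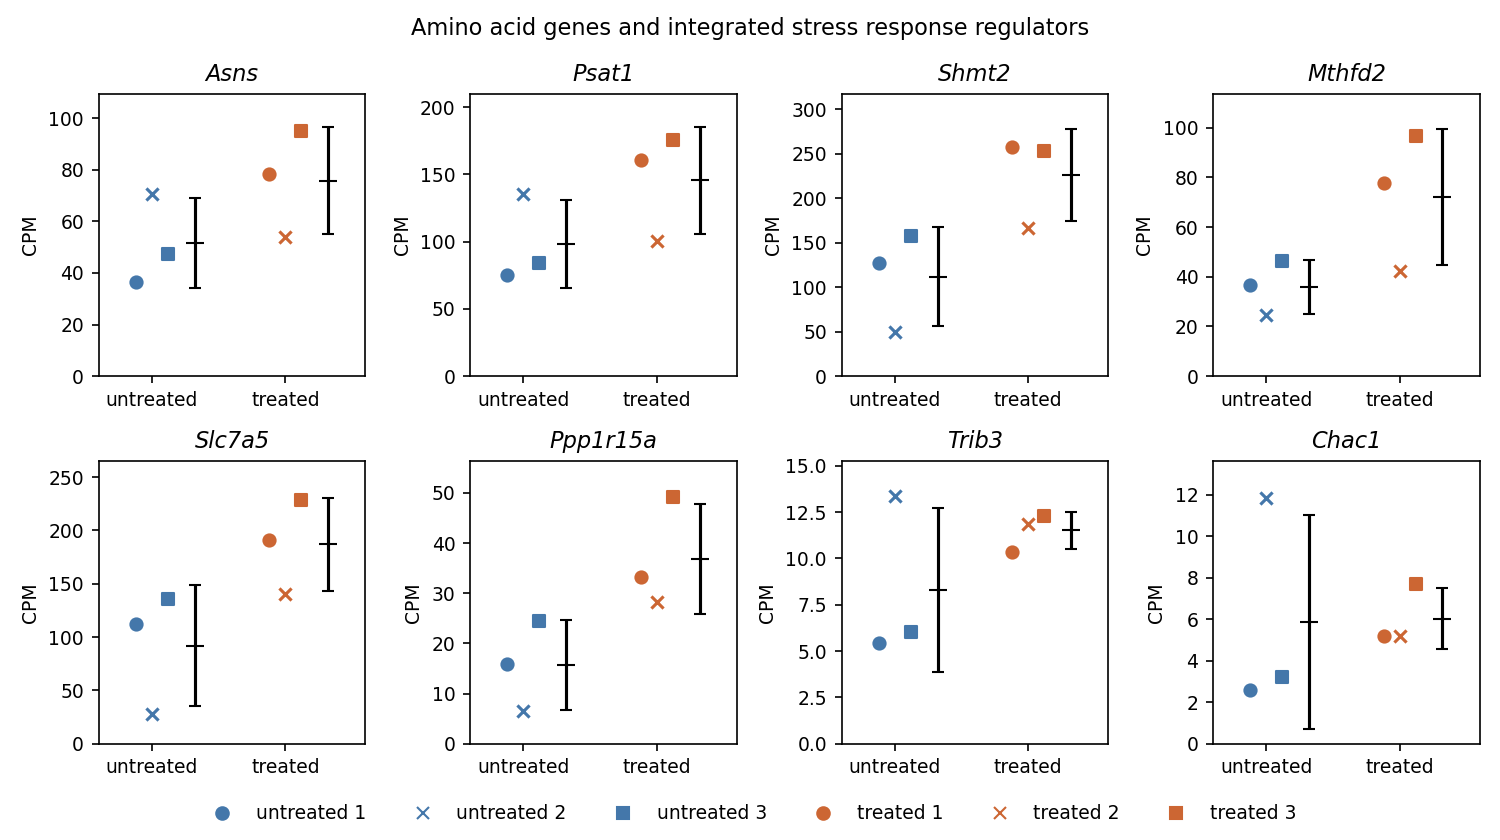
CPM of 5 amino acid genes and 3 regulators in each library (symbols, y axis from 0), with the mean and SD of 3 libraries per group (bars). Treated 2 (cross) is the lowest treated library in each of the 5 amino acid genes, and untreated 2 (cross) is the highest of 6 libraries in *Trib3* and *Chac1* and the lowest in *Shmt2*, *Mthfd2*, *Slc7a5* and *Ppp1r15a*.

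The tRNA synthetases, which load amino acids onto tRNAs, showed smaller differences. All 9 lay above 0 over the 6 libraries and without untreated 2, with medians of 0.37 and 0.30. *Eprs* lay below 0 with DESeq2, DESeq2 size factors, the upper quartile and a GC correction. It did so too when untreated 1, untreated 3 or treated 1 was left out. *Aars* (chromosome 8, 111033144 to 111057664), for alanine, had 131, 61.4 and 144 CPM in the untreated and 179, 155 and 189 CPM in the treated libraries. The groups did not overlap, at 0.63 ± 0.33 log2, or 0.33 ± 0.12 without untreated 2. *Gars* (chromosome 6, 55038007 to 55079500), for glycine, had 198, 202 and 195 CPM in the untreated and 287, 210.3 and 253 CPM in the treated libraries. Its untreated values spanned a narrow range that included untreated 2, and each treated value lay above it. The log2 fold change was 0.34 ± 0.20 (edgeR, unadjusted p = 0.133).

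In the other 7 the groups overlapped, with treated 2 below the highest untreated library. *Iars*, for isoleucine, had 147, 96.2 and 167 CPM untreated and 212, 166 and 208 CPM treated. *Mars*, for methionine, had 82.7, 58.9 and 92.1 CPM untreated and 117, 88.4 and 116 CPM treated. *Nars*, for asparagine, had 146, 170.3 and 167 CPM untreated and 217, 151 and 223 CPM treated. In each of these the values of treated 1 and 3 exceeded all untreated ones. *Sars*, for serine, had 149, 104 and 156 CPM untreated and 183, 151 and 197 CPM treated, and *Yars*, for tyrosine, had 70.5, 49.3 and 77.0 CPM untreated and 82.4, 69.5 and 85.2 CPM treated. *Wars*, for tryptophan, is also induced by interferon and had 65.6, 21.2 and 74.3 CPM untreated and 80.3, 71.1 and 83.7 CPM treated, with a log2 fold change of 0.54 ± 0.43 that was 0.16 ± 0.12 without untreated 2. *Eprs*, for glutamate and proline, had 289.8, 555 and 331 CPM untreated and 428, 372 and 389 CPM treated. It was highest in untreated 2, and its log2 fold change was 0.02 ± 0.28, or 0.34 ± 0.12 without it. Standard errors of the 9 fold changes were 0.20 to 0.43 log2 with all libraries, so differences of this size were not detectable at an adjusted p under 0.05.

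The endoplasmic reticulum genes lay on both sides of 0, around a median of 0.12, or 0.17 without untreated 2. With all libraries 8 of 13 tested lay above 0 and 5 below. *Manf* turned below 0 with the upper quartile, with a GC correction and when untreated 1, untreated 3 or treated 3 was left out. *Canx* turned above 0 with that correction and without untreated 2. The median was 0.06 without untreated 3 and 0.03 without treated 3. *Hyou1* (chromosome 9, 44379490 to 44392369), a large HSP70 relative that aids nucleotide exchange, had 157, 111 and 156 CPM in the untreated and 207, 199.96 and 223 CPM in the treated libraries. The groups did not overlap, and the treated values lay close together. Its mean was 210.1 ± 11.9 CPM in treated against 141 ± 26.1 in untreated tumours (SD, n = 3), a log2 fold change of 0.57 ± 0.21 (edgeR, unadjusted p = 0.0311), and 0.42 ± 0.10 without untreated 2.

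*Herpud1* (chromosome 8, 94386438 to 94395377), a membrane protein of the degradation complex and a common marker of the unfolded protein response, lay in the other direction with 55.5, 66.1 and 43.3 CPM in the untreated and 29.0, 40.1 and 34.4 CPM in the treated libraries. Each treated value was below each untreated one. The log2 fold change was -0.67 ± 0.24 (edgeR, unadjusted p = 0.0253), and -0.52 ± 0.18 without untreated 2. Of the other degradation genes, *Edem1*, which marks misfolded glycoproteins, had 94.5, 64.5 and 93.0 CPM untreated and 106, 102 and 113 CPM treated, without overlap, at a log2 fold change of 0.35 ± 0.22. The ubiquitin ligase genes *Sel1l* and *Syvn1* were lowest in untreated 2, with 143, 55.3 and 135 CPM untreated and 118, 146 and 123 CPM treated for *Sel1l*. *Syvn1* had 83.6, 16.7 and 73.8 CPM untreated and 67.8, 79.2 and 66.5 CPM treated. Their log2 fold changes of 0.21 ± 0.36 and 0.29 ± 0.52 were -0.11 ± 0.12 and -0.15 ± 0.13 without untreated 2. Of the derlins, which form the exit channel, *Derl1* and *Derl2* were highest in untreated 2. *Derl1* had 82.0, 136 and 76.8 CPM untreated and 78.5, 86.2 and 82.9 CPM treated and *Derl2* 42.4, 77.2 and 43.4 CPM untreated and 43.4, 40.8 and 39.4 CPM treated, with log2 fold changes of 0.05 ± 0.11 and -0.07 ± 0.12 without untreated 2. *Derl3*, with 0 counts in untreated 2, was at or under 0.816 CPM in each library. It is also a marker of plasma cells, antibody-secreting cells of the immune system. Of the other 7 plasma cell markers in the tables, *Jchain*, *Mzb1*, *Tnfrsf17* and *Pou2af1* were under 1 CPM in each library, while *Sdc1* (304 to 517 CPM), *Fkbp11* (11.6 to 27.5 CPM) and *Prdm1* (7.14 to 14.7 CPM), which other cells also express, were not.

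The abundant lectin chaperones overlapped between the groups. *Calr* (chromosome 8, 84841850 to 84846934), calreticulin, had 762, 753 and 653 CPM in the untreated and 787, 738 and 837 CPM in the treated libraries. Its log2 fold change was 0.12 ± 0.19. *Canx*, calnexin, had 688, 1137 and 744 CPM untreated and 836, 755 and 859 CPM treated, with untreated 1 and 3 below each treated library. For *Canx* the log2 fold change was -0.07 ± 0.25, or 0.18 ± 0.12 without untreated 2. Per kilobase of longest transcript *Calr* and *Canx* had the highest mean levels of the members over the 6 libraries, 346 and 195 CPM per kilobase, followed by *Phgdh* (169) and *Atf4* (103). *Derl3*, *Vldlr* and *Sesn2* had the lowest, at 0.307, 0.398 and 3.20. *Creld2*, a secreted folding factor, had 25.4, 22.3 and 22.2 CPM untreated and 30.8, 25.7 and 31.7 CPM treated, without overlap, at a log2 fold change of 0.33 ± 0.19. *Manf*, another secreted stress factor, had 87.1, 128 and 78.6 CPM untreated and 101, 89.9 and 110.3 CPM treated. *Sdf2l1*, a co-chaperone of BiP, had 25.9, 21.4 and 19.1 CPM untreated and 25.2, 19.9 and 31.0 CPM treated. In both the groups overlapped. In *Manf* untreated 2 was the highest library, and untreated 1 and 3 lay below each treated one. *Sec61b*, a subunit of the import channel, had 43.7, 105 and 55.3 CPM untreated and 64.9, 51.7 and 57.1 CPM treated, so that its log2 fold change was -0.23 ± 0.34 with untreated 2 and 0.21 ± 0.16 without it.

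**Figure D3:**
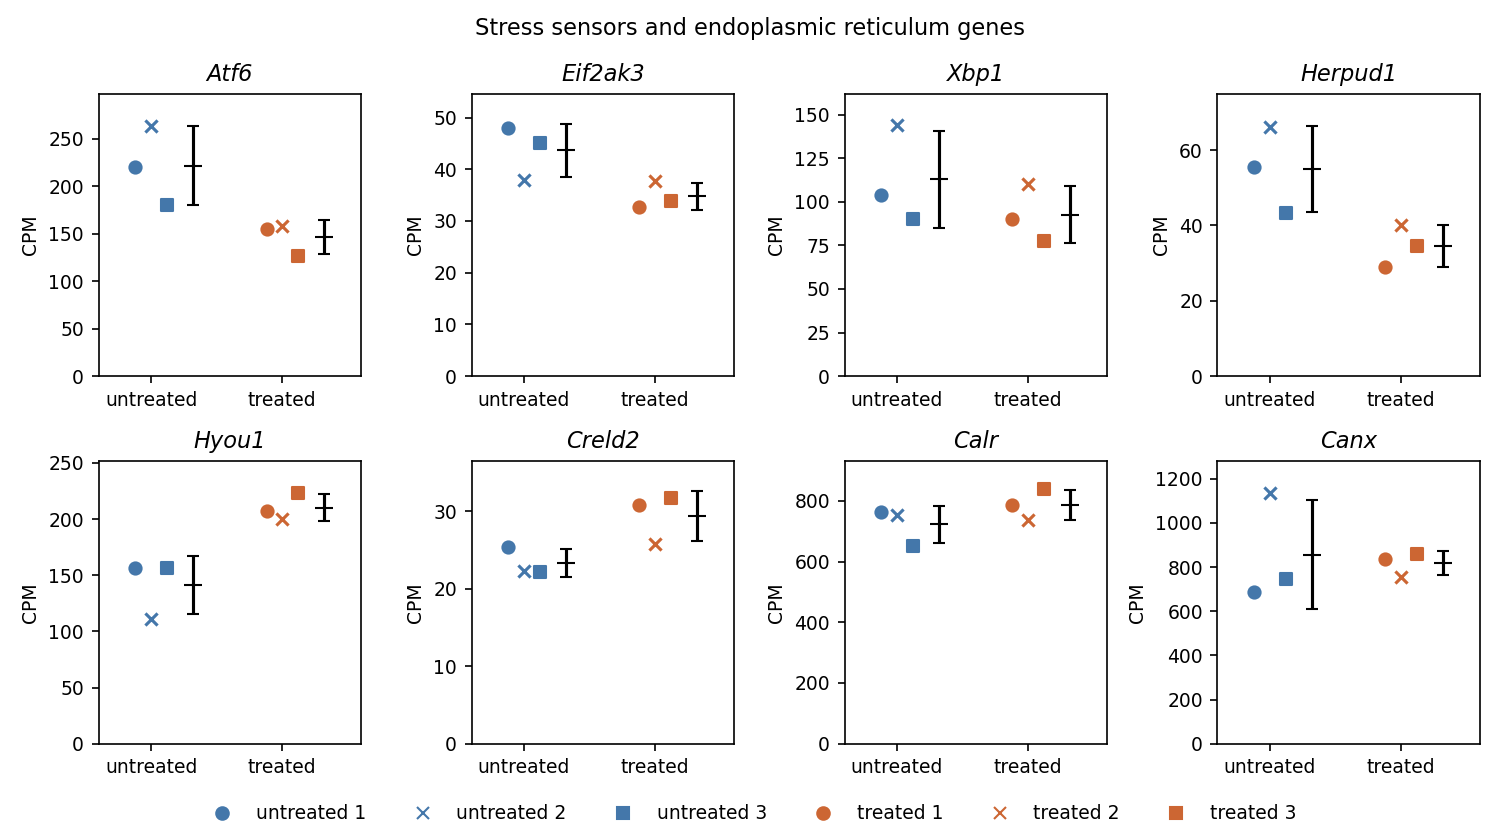
CPM of the sensor genes *Atf6* and *Eif2ak3*, of *Xbp1* and of 5 endoplasmic reticulum genes in each library (symbols, y axis from 0), with the mean and SD of 3 libraries per group (bars). *Atf6*, *Eif2ak3* and *Herpud1* have the 3 treated values below the 3 untreated ones, *Hyou1* and *Creld2* above them, and *Xbp1*, *Calr* and *Canx* overlap.

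Other genes of both pathways were listed with earlier results known and are given by counts. Of 27 tested further genes of the integrated stress response, 22 lay above 0 (20 without untreated 2), with a median of 0.30 (0.23). At an unadjusted p under 0.05, 3 were higher and 1 lower (beside 3.32% and 4.85% of all genes), and 8 and 2 without untreated 2 (beside 9.55% and 8.85%). The smallest p among the higher ones was that of *Atf3*, a stress factor that other signals also induce, with 2.57, 3.57 and 7.24 CPM in the untreated and 28.4, 11.2 and 24.2 CPM in the treated libraries. Its groups did not overlap, the log2 fold change was 2.23 ± 0.51 (edgeR, unadjusted p = 0.00309), and DESeq2 called it at an adjusted p of 0.0172 (0.00552 to 0.966 over the alternatives). *Slc1a4*, a carrier of neutral amino acids, led the lower ones with 64.3, 87.0 and 47.4 CPM in the untreated and 41.8, 37.3 and 31.953 CPM in the treated libraries. Each treated value was below each untreated one, at a log2 fold change of -0.84 ± 0.27 (edgeR, unadjusted p = 0.0167). *Eif2ak4*, the gene of the amino acid sensor GCN2, had 35.8, 27.7 and 34.8 CPM untreated and 40.047, 38.6 and 43.3 CPM treated, without overlap. *Ddit4*, an inhibitor of mTORC1, had 99.5, 53.6 and 122 CPM untreated and 98.5, 99.6 and 101 CPM treated, which overlapped.

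Of 41 further endoplasmic reticulum genes, 14 lay above 0 with all libraries and 28 without untreated 2, so their balance turned with that library, and the medians were -0.09 and 0.06. With all libraries 1 was higher and 1 lower at an unadjusted p under 0.05, and without untreated 2 the counts were 1 and 3. Of all genes, 3.32% were higher and 4.85% lower, and 9.55% and 8.85% without untreated 2. *Hspa5*, the gene of the chaperone BiP, had 879.5, 1921 and 792 CPM in the untreated and 1009.9, 927 and 932 CPM in the treated libraries. Untreated 2 was the highest, and untreated 1 and 3 lay below each treated library. The log2 fold change was -0.32 ± 0.36, or 0.19 ± 0.12 without untreated 2. *Dnajb9*, a co-chaperone of BiP and a target of spliced XBP1, had 33.7, 69.4 and 24.7 CPM in the untreated and 24.3, 21.6 and 22.9 CPM in the treated libraries. Its treated values were below each untreated one by a narrow margin, at -0.89 ± 0.38 log2, or -0.35 ± 0.17 without untreated 2. *Creb3l1*, a membrane-bound factor related to ATF6 that acts on collagen genes, had 3.33, 0.223 and 3.68 CPM in the untreated and 6.79, 11.8 and 14.4 CPM in the treated libraries, without overlap. Its log2 fold change was 2.12 ± 0.69 (edgeR, unadjusted p = 0.0177), and 1.65 ± 0.37 without untreated 2. *Creb3*, its relative, was lower with 36.0, 45.3 and 32.9 CPM untreated and 24.9, 30.3 and 25.6 CPM treated.

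Of the 11 cytosolic synthetases outside the member list, 9 lay above 0 with all libraries and 11 without untreated 2, with medians of 0.16 and 0.35. At an unadjusted p under 0.05, 0 were higher with all libraries and 7 without untreated 2, beside 3.32% and 9.55% of all genes. The 9 synthetases of the list and these 11 had medians of 0.30 and 0.35 without untreated 2. *Farsa*, for phenylalanine, had 55.1, 47.5 and 61.8 CPM untreated and 89.6, 57.9 and 78.2 CPM treated, and *Dars*, for aspartate, had 82.6, 303 and 97.4 CPM untreated and 118, 99.7 and 115 CPM treated, the latter turning from -0.53 ± 0.49 to 0.30 ± 0.13 without untreated 2. Of 16 mitochondrial synthetases 12 lay above 0 in both fits, with medians of 0.16 and 0.21. *Mars2* was without overlap, with 14.2, 12.7 and 18.2 CPM untreated and 26.3, 19.996 and 26.6 CPM treated, and *Fars2* lay slightly lower in treated tumours, with 25.1, 29.7 and 26.6 CPM untreated and 23.6, 23.7 and 25.5 CPM treated.

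The groups of genes also differed between libraries of the same treatment. Relative to the mean of untreated 1 and 3, the mean log2 CPM of the 9 amino acid genes was 0.70, 0.13 and 0.81 in treated 1, 2 and 3, against -0.09, -0.36 and 0.09 in untreated 1, 2 and 3. The synthetases had 0.37, 0.06 and 0.37 in the treated libraries against -0.07, -0.47 and 0.07 in the untreated ones. In both groups treated 1 and 3 stood apart from treated 2, which lay near untreated 3. That likeness was not particular to these genes. Across the genes at large, treated 2 and untreated 3 were the closest pair of libraries, at a chi-square per gene of 5.64. Treated 2 differed more from treated 1 (11.7) and treated 3 (15.6). Treated 2 was the lowest treated library in 9 of 9 amino acid genes and 9 of 9 synthetases, against 36.4% of all tested genes. The regulators had 0.35, 0.34 and 0.66 in the treated libraries against -0.08, -0.15 and 0.08 in the untreated ones. The mean of the endoplasmic reticulum genes spanned -0.05 to 0.14 over the 6 libraries, with single genes such as *Herpud1* and *Hyou1* differing in opposite directions. The sensors with *Xbp1* had -0.28, -0.10 and -0.35 in the treated libraries against 0.04, -0.44 and -0.04 in the untreated ones, with untreated 2 the lowest. All 12517 tested genes together had -0.04, -0.006 and 0.02 in the treated libraries against 0.004, -0.19 and -0.004 in the untreated ones. Part of each low value in untreated 2 was therefore shared by genes at large. The summed neutrophil markers were 83.8, 34.4 and 75.0 CPM in treated 1, 2 and 3, lowest in treated 2. The summed macrophage markers were 436, 778 and 641 CPM, highest in it. Also lowest in treated 2 were the sums of keratinocyte (18.1, 4.76 and 59.4 CPM) and skeletal muscle markers (20.2, 3.26 and 387 CPM). The connective tissue sum was highest in it, and the other marker sums lay between treated 1 and 3. The part of these cells in the difference between treated libraries was not tested.

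**Figure D4:**
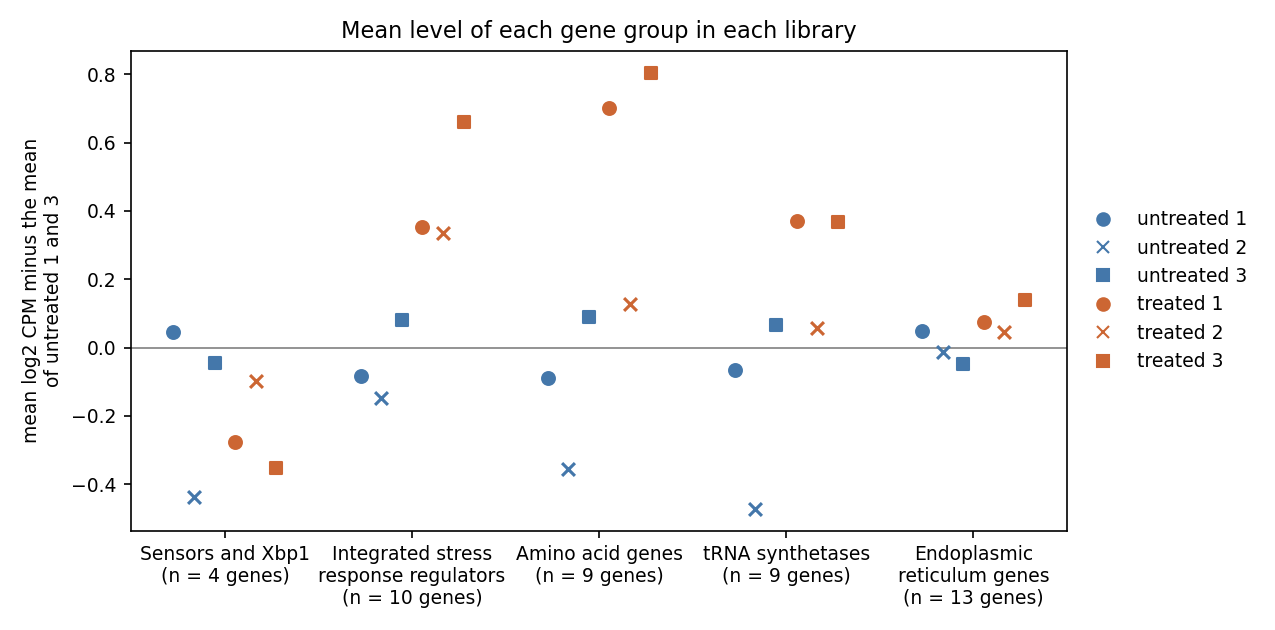
Mean log2 CPM of each group of members in each library, as the difference from the mean of untreated 1 and 3 (y axis), for 4 to 13 genes per group. The amino acid genes lie at 0.70 and 0.81 in treated 1 and 3 and at 0.13 in treated 2. The mean of the endoplasmic reticulum genes stays between -0.05 and 0.14, though single genes of that group differ more.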

How the data were processed

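Counts per gene symbol were analysed in 6 libraries, 3 untreated and 3 treated, assigned by title. The deposited values are whole-number counts for 23183 symbols per library. Per the labels' protocols, Trizol was used for RNA and a strand-keeping kit for the libraries. TopHat and mm10 are named in the submitters' processing notes. Which program counted reads, with which annotation and strand setting, is not given in the sources used here.

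Genes were filtered with filterByExpr (smallest count 10), which kept 12517, scaled with TMM and compared with edgeR 4.0.16 (R 4.3.3, quasi-likelihood test, 2-sided, Benjamini-Hochberg adjustment over the 12517 genes). The smallest p of an exact permutation test of 3 against 3 is 0.1, and none was run. CPM use the TMM library sizes, group means carry the SD over 3 libraries, and the SE is the log2 fold change divided by the root of F. Mean levels of gene groups use log2 CPM with a prior count of 3. Depths of 4680295 to 8019294 counts make genes with few counts imprecise.

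The members and lists were chosen with earlier results of these data known. All 46 members are named, with the gene of smallest p per direction in 4 further lists and *Hspa5*, *Dnajb9*, *Ddit4*, *Eif2ak4* and *Atf3*. Marker lists covered plasma cells, macrophages, neutrophils, keratinocytes, muscle, endothelium, adipocytes, T cells and connective tissue. The summed CPM of 6 endothelial markers was 78.5 to 153 in untreated and 120.5 to 185 in treated tumours, of 5 adipocyte markers 10.4 to 23.6 and 9.30 to 27.8, and of 5 T cell markers 1.79 to 6.35 and 0.715 to 3.23. Coordinates and transcript GC content are from GENCODE M21 (mm10), promoters from RefSeq (GRCm38.p6).

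Each pair of libraries differed beyond sampling noise, at a chi-square per gene of 5.64 or more. The steps were tested on counts simulated from these libraries. With the spread of all 6, edgeR recovered 2 of 100 genes changed 2-fold and 60 of 100 changed 4-fold, with 4 false calls among 12364 genes. With the spread and the 5 libraries left without untreated 2, it recovered 45 and 93 of 100, with 11 false calls among 12469 genes. The simulation drew each gene independently, with the same spread in every library. In the data untreated 2 stood apart, with a trend by GC content, so recovery and false calls in these libraries may differ. Alternatives were DESeq2 size factors, the upper quartile, DESeq2 1.42.0, limma-voom (limma 3.58.1), no filter, a minimum mean of 5 CPM, each library left out, a block for the replicate number, and a loess correction for GC content and length (span 0.3). DESeq2 without untreated 2 was added after the data were seen.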

Additional observations from a re-analysis of the deposited data

How the results depend on the processing

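With 57 named genes tested, limma-voom, no filter and the replicate block changed no direction and no call, and a filter at a mean of 5 CPM changed none of 56. The number of genes called was 0 in the main test, 57 with DESeq2, 0 to 4 over the fits that leave out 1 library (4 without untreated 3), and 273 with DESeq2 without untreated 2. Members at an unadjusted p under 0.05 numbered 4 higher and 2 lower in the main test, 0 to 14 and 0 to 3 over the fits without 1 library, and 14 higher with DESeq2 without untreated 2. The shares of all genes were 3.32% higher and 4.85% lower in the main test, and 0.702% to 9.55% and 1.77% to 8.85% over the fits without 1 library. With DESeq2 without untreated 2, 2054 of 12836 genes had such a p in either direction. The further pathway genes numbered 5 higher and 2 lower. Higher ones were 8 with DESeq2, 3 with the filter at 5 CPM, 1 to 19 without 1 library and 20 with DESeq2 without untreated 2. Lower ones were 1 with limma-voom, 1 with the replicate block and 0 to 5 without 1 library. Such a p in either direction was held by 1023 of all 12517 tested genes in the main test. It was held by 1286 with DESeq2, 946 with limma-voom, 989 with the replicate block, and 923 of 10905 with the filter at 5 CPM. Members without overlap were 10 above (beside 10.6% of genes), and 10 to 23 without 1 library. They were 18 without untreated 2 (19.6%), 17 without untreated 3 (17.9%) and 23 without treated 2 (17.9%). The share of all genes was not counted for the fits without the other libraries. The median of the endoplasmic reticulum genes was 0.0263 to 0.17 without 1 library. The medians of the other 4 groups of members kept their sign under each alternative, among them the GC and length correction (sensors -0.44, regulators 0.31, amino acid genes 0.59, synthetases 0.32).

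Log2 fold changes turned sign when 1 library was left out in these genes, given as the range over those fits: *Atf4* -0.27 to 0.25, *Canx* -0.21 to 0.18, *Chac1* -0.29 to 1.05, *Dars* -0.86 to 0.29, *Ddit4* -0.16 to 0.38, *Derl1* -0.40 to 0.0511, *Eprs* -0.17 to 0.34, *Ern1* -0.0287 to 0.83, *Hspa5* -0.55 to 0.19, *Manf* -0.10 to 0.27, *Nupr1* -0.32 to 0.0324, *Phgdh* -0.12 to 0.49, *Sec61b* -0.48 to 0.21, *Sel1l* -0.11 to 0.42, *Sesn2* -0.0343 to 0.93, *Slc3a2* -0.11 to 0.10, *Syvn1* -0.15 to 0.63. With DESeq2 without untreated 2 the values that turned sign were -0.0288 (*Ern1*), 0.25 (*Atf4*), -0.0335 (*Sesn2*), 0.0325 (*Nupr1*), -0.11 (*Slc3a2*), -0.11 (*Sel1l*), -0.15 (*Syvn1*), 0.0519 (*Derl1*), 0.21 (*Sec61b*), 0.18 (*Canx*), 0.29 (*Dars*), 0.19 (*Hspa5*), -0.16 (*Ddit4*). With the GC and length correction the values that turned sign were -0.14 (*Chac1*), -0.15 (*Phgdh*), -0.091 (*Slc3a2*), -0.00749 (*Eprs*), -0.0147 (*Manf*), 0.10 (*Canx*). With DESeq2 size factors the values that turned sign were -0.00174 (*Slc3a2*), -0.00896 (*Eprs*). With the upper quartile the values that turned sign were -0.0188 (*Slc3a2*), -0.0275 (*Eprs*), -0.00429 (*Manf*). With DESeq2 the values that turned sign were -0.00267 (*Slc3a2*), -0.00878 (*Eprs*).

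The labels used here do not say whether the replicate numbers of the titles pair the tumours. The deviations of same-numbered libraries from their group means correlated at -0.18, -0.11 and 0.11. With 3 libraries per group and untreated 2 far from the rest, these values cannot decide it. The block is therefore given as a number only: with the replicate block 0 genes were called. The cause of each change was not tested. Depth limits *Derl3*, *Vldlr* and *Chac1*, with no more than 62 counts in a library.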
